A study of Mus musculus with 2 samples.

Results

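Genes for neutrophil granule proteins, the phagocyte NADPH oxidase, the stefin protease inhibitors and neutrophil adhesion and receptor proteins were described in mouse skin cells sorted by antibody staining of ZIP10, a transporter that brings zinc into the cell. The members were taken from a list of 39 symbols, and all 39 of them are among the 23233 genes of the deposited table. The ZIP10-positive and ZIP10-negative groups were both sorted from dissociated ventral skin of wild-type C57BL/6 mice at 7 days of age. The sample titles place both groups in hair follicles, whereas the protocol starts from whole minced skin stained with a polyclonal antibody. Each group is 1 library with no replicate, so no test was possible and every difference describes these 2 libraries. The labels used here do not give the number of animals behind a library.

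Neutrophils are short-lived phagocytes that carry ready-made proteins in granules and are recruited to skin by infection and injury. Azurophil granule proteins are made first, at the promyelocyte stage in bone marrow, specific granule proteins next, and gelatinase granule proteins last, so mature cells hold proteins whose mRNA they no longer make. The oxidase joins a membrane pair of subunits with cytosolic subunits to make superoxide, and stefins inhibit cysteine cathepsins. Several of these genes are not particular to neutrophils: monocytes and macrophages also express the oxidase, lysozyme 2, integrin and lectin receptor genes, and keratinocytes express annexin A1 and lipocalin 2.

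Nearly all of these genes had higher values in ZIP10-positive cells, while the azurophil granule genes were mostly listed at 0 in both libraries. Values are RPKM, which are read counts corrected for the length of the transcript and the depth of the library. Differences are log2 ratios of RPKM + 1, positive over negative, which understate the difference of low genes. In ZIP10-positive cells 35 of the 39 genes were higher by 2-fold or more and 0 were lower by as much. Of these 35, 17 were listed at 0 in ZIP10-negative cells, where the size of the ratio is set by the added 1. The background was 44.1% higher and 3.55% lower among the 12249 genes that reached 1 RPKM in either library. The table leans towards the ZIP10-positive library, since among genes that reached 1 RPKM in both the median was 1.97-fold higher there, 0.98 on the log2 scale. Set against this median gene, 31 of the 39 still reached 2-fold higher and 0 reached 2-fold lower, on a background of 14.7% higher and 11.4% lower. Of the 19 members with values in both libraries 18 were higher by 2-fold or more, and 14 were so against the median gene. The 36 members with a value above 0 also passed the filter of 1 RPKM and had a median log2 ratio of 3.28, or 2.81 relative to the median gene. Over all 39 members the medians were 2.81 and 2.31, beside 0.87 and 0.094 over all genes compared. The scaling to the median gene was applied to the RPKM values before the 1 was added. Low genes and genes listed at 0 therefore moved by less than 0.98, such as Ngp from 7.00 to 6.52. Csf3r, Il1b and Chi3l1, at 1.79, 1.83 and 1.94 as deposited, count among the 31. They would fall short of 2-fold if the full 0.98 were taken off. In bulk libraries more cells of a type and more RNA per cell cannot be told apart.

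**Figure D1:**
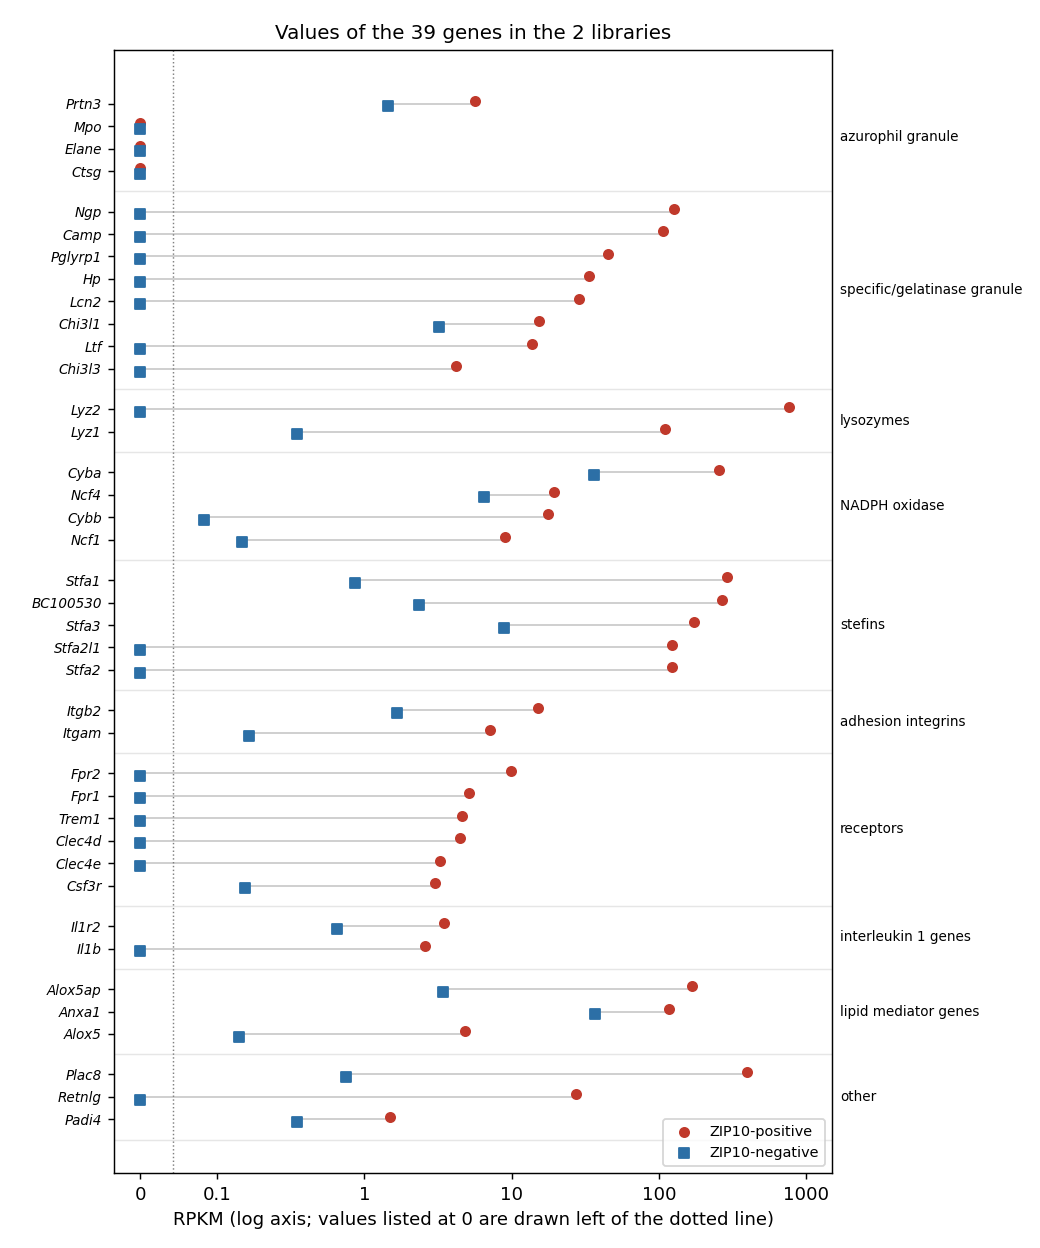
RPKM of each of the 39 genes in the ZIP10-positive library (red circles) and the ZIP10-negative library (blue squares), on a log axis, grouped by class; each point is the value of 1 library and there are no error bars. In 36 genes the red circle lies to the right, and Mpo, Elane and Ctsg are listed at 0 in both libraries.

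Many of these genes were listed at 0 in ZIP10-negative cells. Of the 36 members with 1 RPKM or more in ZIP10-positive cells, 17 were listed at 0 in ZIP10-negative cells, which is 47.2%, against 5.11% of the 11683 genes of the table at that level. Among the 22 members with 10 RPKM or more it was 10, or 45.5%, against 1.5% of 5054 genes. No member was listed at 0 in ZIP10-positive cells only. A listed 0 can be a failed estimate, as broadly expressed genes such as Psmg4, a proteasome assembly factor at 69.5 RPKM in ZIP10-positive cells, were also listed at 0 in ZIP10-negative cells. No ratio of RPKM values is therefore given against a listed 0, and such genes enter the counts and ranks only through log2 ratios that depend on the added 1.

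**Figure D2:**
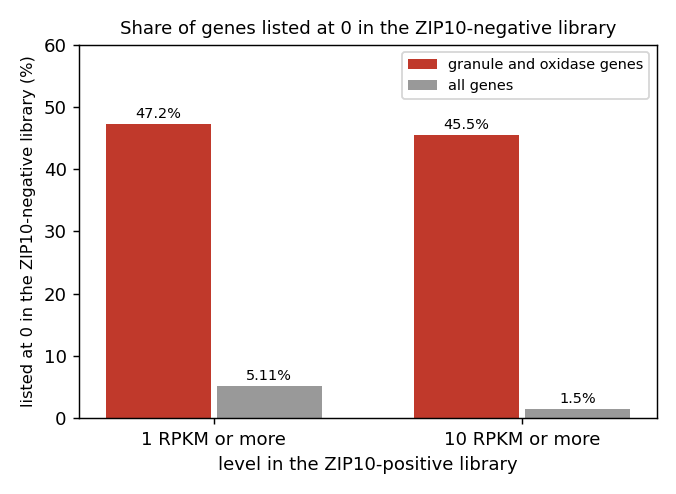
Percentage of genes listed at 0 in the ZIP10-negative library, among genes with at least 1 RPKM and at least 10 RPKM in the ZIP10-positive library, for the granule and oxidase genes (red) and for all genes (grey). The shares are 47.2% against 5.11% and 45.5% against 1.5%.

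Of the azurophil granule genes 3 of 4 were at 0 in both libraries. Mpo (myeloperoxidase), Elane (neutrophil elastase) and Ctsg (cathepsin G) were listed at 0 in ZIP10-positive and in ZIP10-negative cells. Prtn3, the serine protease proteinase 3, had 5.63 RPKM in ZIP10-positive cells and 1.44 RPKM in ZIP10-negative cells. Its ratio of 3.90 rests on few reads. The smallest whole read numbers with this ratio are 4 and 1, which give an exact counting interval (95%) of 0.386 to 192, while the annotated length and estimated depth gave about 12.9 and 3.23 reads. With those smallest numbers the interval includes equal values, while larger multiples could leave equal values outside it. For this and the intervals that follow the true read numbers can be multiples of the smallest ones, which would make the interval narrower. Prtn3 and Elane are immediate neighbours among the coding genes of chromosome 10, and they differed in whether any value was listed.

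Specific and gelatinase granule genes ranged from 4.17 to 127 RPKM in ZIP10-positive cells, and 7 of the 8 were listed at 0 in ZIP10-negative cells. The lowest, Chi3l3, lay below the 5.63 RPKM of the azurophil gene Prtn3. Ngp, the neutrophilic granule protein, had 127 RPKM in ZIP10-positive cells, about 361 reads at the estimated depth, against a listed 0 in ZIP10-negative cells. Camp, the cathelicidin antimicrobial peptide precursor of the same protein family, had 106 RPKM, about 165 reads, against a listed 0. These were the highest of the class, and excluding 31 microRNA and small nucleolar RNA entries they held ranks 6 and 9 of 12218 genes by log2 ratio, which for both is set by the added 1.

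Pglyrp1, a peptidoglycan recognition protein that kills bacteria, had 45.2 RPKM in ZIP10-positive cells against a listed 0 in ZIP10-negative cells. Hp, the haemoglobin scavenger haptoglobin, had 33.4 RPKM against a listed 0. Lcn2, lipocalin 2, which binds bacterial siderophores, had 28.8 RPKM against a listed 0. This middle group rests on about 62.1, 106 and 57.2 reads in the ZIP10-positive library. Ltf, the iron-binding lactoferrin, had 13.7 RPKM against a listed 0, and Chi3l3, the chitinase-like lectin Ym1, had 4.17 RPKM against a listed 0. For Chi3l3 29.4% of the 50-base stretches are shared with other entries. Chi3l1, another chitinase-like protein, was the member of the class with values in both libraries, 15.2 RPKM in ZIP10-positive cells and 3.22 RPKM in ZIP10-negative cells. Its ratio of 4.73 had a counting interval of 2.58 to 9.36, taken from 63 and 13 reads. It was past 2-fold against the median gene, with a ratio of 2.40. Scaling without the 50 most abundant genes put its log2 ratio at 0.83 and scaling without globin genes and Rn45s at 0.74, both short of 2-fold.

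The promoters of Ngp, Camp and Ltf are shown with that of Elane, since these genes mark the contrast between granule classes. Each run is the 250 bases before the RefSeq start on GRCm38.p6, a different build from the mm9 of the deposited values, and capitals mark TTGCNNAA, a form of the C/EBP motif, or GAGGAAG, a core of the PU.1 motif, on either strand. Camp holds neither. They lie at chr9:110419558-110419807 (plus strand), chr9:109849457-109849706 (minus strand), chr9:111019042-111019291 (plus strand) and chr10:79886062-79886311 (plus strand).
Ngp: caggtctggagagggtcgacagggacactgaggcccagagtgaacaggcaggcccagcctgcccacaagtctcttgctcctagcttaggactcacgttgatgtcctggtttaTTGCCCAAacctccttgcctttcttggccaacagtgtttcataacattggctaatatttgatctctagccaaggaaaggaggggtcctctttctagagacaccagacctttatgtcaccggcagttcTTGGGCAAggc
Camp: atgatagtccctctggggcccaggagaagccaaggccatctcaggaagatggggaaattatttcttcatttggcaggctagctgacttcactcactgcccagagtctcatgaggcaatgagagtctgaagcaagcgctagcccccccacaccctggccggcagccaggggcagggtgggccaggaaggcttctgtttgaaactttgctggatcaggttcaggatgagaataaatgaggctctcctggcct
Ltf: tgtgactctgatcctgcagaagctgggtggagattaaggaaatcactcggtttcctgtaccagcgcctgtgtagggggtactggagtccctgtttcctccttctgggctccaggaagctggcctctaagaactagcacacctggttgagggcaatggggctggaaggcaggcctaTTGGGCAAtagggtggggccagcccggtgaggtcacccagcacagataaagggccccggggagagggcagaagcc
Elane: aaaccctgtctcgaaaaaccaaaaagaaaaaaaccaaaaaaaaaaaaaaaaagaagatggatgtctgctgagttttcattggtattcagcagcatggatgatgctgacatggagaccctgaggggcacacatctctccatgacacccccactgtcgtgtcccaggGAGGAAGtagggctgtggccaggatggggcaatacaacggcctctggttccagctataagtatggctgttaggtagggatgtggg

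Letters of the C/EBP form occurred in 9 of the 34 members with a promoter sequence and in 9.56% of all 32851 promoters of the same length. Ngp, Ltf and Lcn2 held it, 3 of 7 specific and gelatinase granule genes with a sequence, and none of the 4 azurophil granule genes did. In Ngp it started 138 and 11 bases before the start, and in Ltf 75 bases before it. The GAGGAAG letters occurred in 10 of the 34 members and in 10.6% of all promoters, among them all 4 azurophil granule genes and 2 of the 7 specific and gelatinase granule genes. In Elane they started 85 bases before the start. A match is a run of letters and no evidence of binding, and the motif forms were chosen after matches in these promoters had been seen.

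Both lysozyme genes, which encode enzymes that cut bacterial cell walls, were among the most different genes of the table. Lyz2, the lysozyme of myeloid cells, had 772 RPKM in ZIP10-positive cells, about 2393 reads, against a listed 0 in ZIP10-negative cells. Lyz1, known in mice for its expression in Paneth cells, had 111 RPKM in ZIP10-positive cells and 0.347 RPKM in ZIP10-negative cells, or about 328 reads and 1 read by length. The genes are neighbours on chromosome 10, their coding sequences are 95.1% identical, and 16.1% of the 50-base stretches of the Lyz1 transcript also occur in Lyz2. Reads of 50 bases from such stretches cannot be assigned to either gene, so the split between them is uncertain. The first 90 coding bases of the GENCODE vM21 transcripts (GRCm38) show how close the copies are, with capitals for the 7 bases of Lyz1 that differ from Lyz2.
Lyz2: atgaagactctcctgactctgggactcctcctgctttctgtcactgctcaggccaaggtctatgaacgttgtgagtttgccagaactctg
Lyz1: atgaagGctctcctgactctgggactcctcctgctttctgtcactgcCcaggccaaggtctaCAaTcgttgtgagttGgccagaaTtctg

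Subunits of the NADPH oxidase had unequal differences. Cybb encodes the catalytic membrane subunit gp91phox and had 17.7 RPKM in ZIP10-positive cells and 0.0809 RPKM in ZIP10-negative cells. Its ratio of 219 corresponds to at least 224 reads and 1 read, with a counting interval of 38.8 to 8669. The length-based estimates, about 224 and 0.998 reads, gave the same size. Ncf1, the cytosolic organiser p47phox, had 8.99 RPKM in ZIP10-positive cells and 0.146 RPKM in ZIP10-negative cells, a ratio of 61.5 from at least 63 reads and 1 read (interval 10.6 to 2465). Both subunits had clear signal in the ZIP10-positive library and very few reads in the other.

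The other members of the oxidase had clear values in both libraries. Cyba, the membrane partner p22phox, which is expressed in many cell types, had 258 RPKM in ZIP10-positive cells and 36.5 RPKM in ZIP10-negative cells. That is a ratio of 7.06, or 3.58 relative to the median gene. Ncf4, the cytosolic subunit p40phox, had 19.2 RPKM in ZIP10-positive cells and 6.48 RPKM in ZIP10-negative cells. Its ratio of 2.97, from 67 and 22 reads, had an interval of 1.81 to 5.05, and the ratio of the median gene lies within it. Genes of oxidase partners and relatives were also examined. Rac2, the GTPase of the phagocyte oxidase, had 15.5 RPKM against 11.6 RPKM in ZIP10-negative cells, and Rac1 had 145 RPKM against 46.5 RPKM. The log2 ratio of Rac2 was -0.53 relative to the median gene, so its direction follows the scaling. With scaling that leaves out globin genes and Rn45s it was -0.92. That of Rac1 stayed above 0, at 0.65 and 0.24. Nox1, Nox3, Noxa1 and Duox2, oxidase genes of other tissues, were listed at 0 in both.

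All 5 stefin genes had more than 100 RPKM in ZIP10-positive cells and less than 10 RPKM in ZIP10-negative cells. Stfa1 had 292 RPKM in ZIP10-positive cells and 0.861 RPKM in ZIP10-negative cells. BC100530 had 268 RPKM in ZIP10-positive cells and 2.33 RPKM in ZIP10-negative cells. Stfa3 had 174 RPKM in ZIP10-positive cells and 8.85 RPKM in ZIP10-negative cells, a ratio of 19.7 with a counting interval of 8.17 to 62.0, taken from 101 and 5 reads. Stfa3 was the stefin with the highest ZIP10-negative value. Stfa2 and Stfa2l1 had nearly equal values, 123.04 and 123.2 RPKM in ZIP10-positive cells, and both were listed at 0 in ZIP10-negative cells.

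Stefin copies are alike enough to share reads of 50 bases. Coding sequences of Stfa2 and Stfa2l1 are 96.4% identical. Those of Stfa1 and BC100530 are 74.2% identical over their whole length, less than the 81.6% of Stfa3 and Stfa2l1. Of the 50-base stretches of the BC100530 transcript 48.9% occur in other genes, most often in Stfa1, and the share was 26.9% for Stfa1, 24.6% for Stfa2l1, 15.9% for Stfa2 and 0 for Stfa3. Stfa3 is thus the stefin with no exact 50-base stretch shared with another gene in this annotation. Only exact matches were counted, so reads of Stfa3 aligned with mismatches could still be shared. The single values of the other stefins are uncertain. The first 90 coding bases are shown from the same annotation for the pairs that share most 50-base stretches with each other. Capitals mark the 3 bases of BC100530 that differ from Stfa1 and the 6 bases of Stfa2l1 that differ from Stfa2.
Stfa1: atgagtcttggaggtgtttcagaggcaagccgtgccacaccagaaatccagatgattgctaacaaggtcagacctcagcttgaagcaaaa
BC100530: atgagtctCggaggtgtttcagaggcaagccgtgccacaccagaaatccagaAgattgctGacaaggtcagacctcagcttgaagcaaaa
Stfa2: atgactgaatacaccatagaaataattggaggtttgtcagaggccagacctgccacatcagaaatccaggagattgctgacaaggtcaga
Stfa2l1: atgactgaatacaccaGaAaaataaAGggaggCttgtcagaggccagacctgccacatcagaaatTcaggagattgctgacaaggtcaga

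Most related inhibitors were higher in ZIP10-positive cells as well. Of 5 further genes of the stefin and cystatin B family, 4 reached 2-fold higher in ZIP10-positive cells and 0 reached 2-fold lower, with or without the median gene taken off. The backgrounds were 44.1% higher as deposited and 14.7% against the median gene. Gm5483 had 153 RPKM, BC117090 had 55.3 RPKM and Gm5416 had 15.2 RPKM in ZIP10-positive cells, each against a listed 0. The share of 50-base stretches that occur in other genes was 35.6% for Gm5483, 33.7% for BC117090 and 0 for Gm5416. For BC117090 these were most often in the member BC100530, so reads can be shared between them. Cstb, the broadly expressed cystatin B, had 193 RPKM in ZIP10-positive cells and 43.5 RPKM in ZIP10-negative cells. The cathepsins that stefins inhibit had 4 of 4 genes past 2-fold higher as deposited, on the same background of 44.1%. Against the median gene 2 of 4 stayed past it, Ctss with 83.3 RPKM against 0.96 RPKM and Ctsh with 50.6 RPKM against 7.52 RPKM. The lysosomal Ctsb had 127 RPKM against 51.6 RPKM and Ctsl 53.04 RPKM against 24.3 RPKM. With scaling that leaves out globin genes and Rn45s their log2 ratios were -0.099 and -0.26, so their direction follows the scaling.

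Both chains of the integrin Mac-1, by which neutrophils and macrophages adhere and take up complement-coated particles, were higher in ZIP10-positive cells. Itgam, the alpha M chain, had 7.14 RPKM in ZIP10-positive cells and 0.164 RPKM in ZIP10-negative cells, about 88.9 and 1.997 reads by length. As 72.4% of its 50-base stretches also occur in the annotated entry Gm49368, its value depends on how shared reads were counted. Itgb2, the beta 2 chain shared by leukocyte integrins, had 14.996 RPKM in ZIP10-positive cells and 1.66 RPKM in ZIP10-negative cells. Its ratio of 9.02 had an interval of 3.24 to 34.9 from 37 and 4 reads. Of 5 genes of other beta 2 integrin chains and partners, 4 reached 1 RPKM in a library, and 0 of these were 2-fold apart in either direction, as deposited or against the median gene. Itgad, below that filter, had 0.0478 RPKM in ZIP10-positive cells and 0.538 RPKM in ZIP10-negative cells. Itgal, the alpha L chain of LFA-1, had 13.1 RPKM in ZIP10-positive cells and 13.8 RPKM in ZIP10-negative cells, and the integrin activator Fermt3 had 10.5 RPKM against 6.33 RPKM. With scaling that leaves out globin genes and Rn45s Itgal went past 2-fold lower, at a log2 ratio of -1.36. Fermt3 was at -0.59 with that scaling and at -0.22 relative to the median gene.

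Receptor genes had low values, from 2.996 to 9.87 RPKM in ZIP10-positive cells, and 5 of the 6 were listed at 0 in ZIP10-negative cells. Fpr2 and Fpr1, receptors for formylated bacterial peptides and other attractants, had 9.87 and 5.13 RPKM in ZIP10-positive cells, about 25.6 and 16.0 reads, and 37.2% of the 50-base stretches of Fpr2 are shared with other entries. Trem1, an amplifying receptor of inflammation, had 4.62 RPKM, and the C-type lectins Clec4d and Clec4e, which bind mycobacterial glycolipids, had 4.45 and 3.26 RPKM. Csf3r, the receptor for the growth factor G-CSF, had 2.996 RPKM in ZIP10-positive cells and 0.153 RPKM in ZIP10-negative cells, or about 27.3 and 1.36 reads. All 6 stayed past 2-fold higher when set against the median gene, but for 5 of them this is a log2 ratio over a listed 0. With a pseudocount of 5 RPKM Fpr2 stayed past 2-fold, at a log2 ratio of 1.27, and the others were at 0.45 to 0.79. Of 7 kin and adaptors of the lectin receptors, 4 reached 2-fold higher and 0 reached 2-fold lower on either scale. The backgrounds were 44.1% higher as deposited, not far from this share, and 14.7% against the median gene. Tyrobp, an adaptor of many myeloid receptors, had 279.8 RPKM against 37.6 RPKM. Clec7a, the beta-glucan receptor dectin-1, had 17.8 RPKM against a listed 0. The adaptor Fcer1g had 163 RPKM against 95.7 RPKM, but its log2 ratio relative to the median gene was -0.21.

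Interleukin 1 genes were low. Il1b, the inflammatory cytokine, had 2.56 RPKM in ZIP10-positive cells, about 8.22 reads, against a listed 0 in ZIP10-negative cells. Il1r2, the decoy receptor, had 3.47 RPKM in ZIP10-positive cells and 0.646 RPKM in ZIP10-negative cells, a ratio of 5.37 with an interval of 1.17 to 49.8 from 11 and 2 reads. The ratio of the median gene lies within that interval. Of 6 other genes of the interleukin 1 system, 3 reached 2-fold higher and 0 reached 2-fold lower, near the background of 44.1%, or 2 and 0 against the median gene. Pycard, the inflammasome adaptor ASC, had 33.3 RPKM against 12.6 RPKM in ZIP10-negative cells.

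Lipid mediator genes differed by very unequal amounts. Alox5ap, which presents arachidonic acid to 5-lipoxygenase, had 169 RPKM in ZIP10-positive cells and 3.40 RPKM in ZIP10-negative cells. The ratio of 49.6 had an interval of 22.5 to 136 from 305 and 6 reads. Alox5, the 5-lipoxygenase that starts leukotriene synthesis, had 4.79 RPKM in ZIP10-positive cells and 0.14 RPKM in ZIP10-negative cells, a ratio of 34.1 with an interval of 5.74 to 1387 from 35 reads and 1 read. Anxa1, the anti-inflammatory annexin A1, had 118 RPKM in ZIP10-positive cells and 36.8 RPKM in ZIP10-negative cells, a ratio of 3.20, or 1.62 relative to the median gene. It was the member with the highest ZIP10-negative value. Of 9 other leukotriene and lipoxygenase genes, 4 reached 2-fold higher and 0 reached 2-fold lower, a share close to the background of 44.1%. Against the median gene 2 stayed higher, and Alox12 was the 1 gene past 2-fold lower. Ltb4r1, the leukotriene B4 receptor, had 13.6 RPKM against 1.86 RPKM, and Lta4h, which makes leukotriene B4, had 44.4 RPKM against 15.4 RPKM.

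The remaining members differed widely, and Plac8 had the highest ratio of the members with values in both libraries. It encodes a small cysteine-rich protein of myeloid and lymphoid cells and had 399 RPKM in ZIP10-positive cells and 0.748 RPKM in ZIP10-negative cells. Its ratio of 534 rests on no fewer than 547 reads and 1 read, with an interval of 95.4 to 21114. Retnlg, a resistin-like secreted protein of neutrophils, had 27.6 RPKM in ZIP10-positive cells against a listed 0 in ZIP10-negative cells. Padi4, the enzyme that citrullinates histones in neutrophils, was the lowest member above 0 in ZIP10-positive cells, with 1.495 RPKM in ZIP10-positive cells and 0.345 RPKM in ZIP10-negative cells. It was the only 1 of the 36 members with a value that was less than 2-fold higher on the log2(RPKM + 1) scale, at 0.89. Relative to the median gene Prtn3, Ncf4, Il1r2 and Anxa1 also fell short of 2-fold, with log2 ratios of 0.73, 0.54, 0.86 and 0.69.

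**Figure D3:**
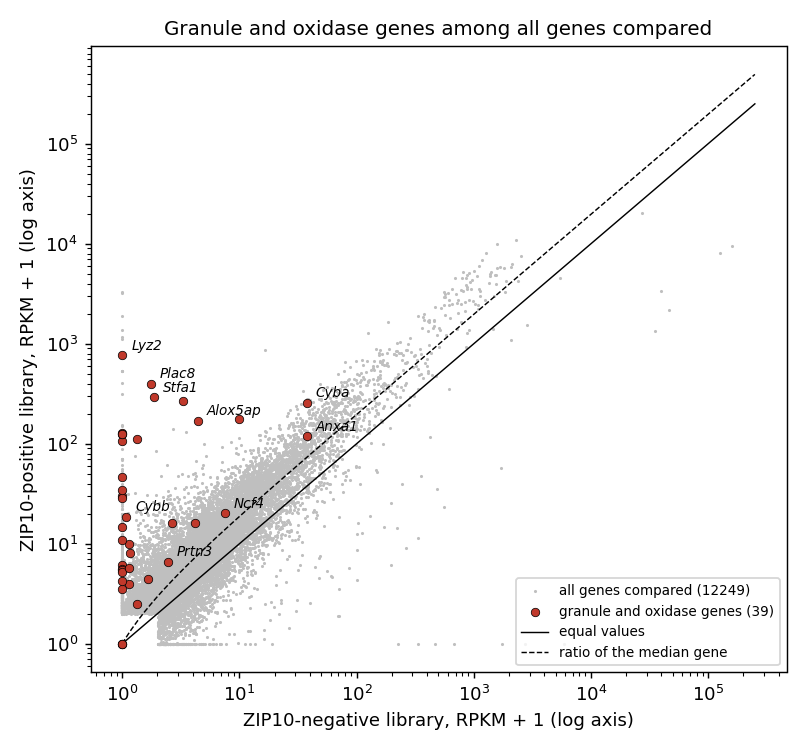
RPKM + 1 of each gene in the ZIP10-positive library against the ZIP10-negative library, both on log axes, for the 12249 genes compared (grey) and the 39 granule and oxidase genes (red); the lines mark equal values and the ratio of 1.97 of the median gene. The red points run along the left edge, where genes are listed at 0 in ZIP10-negative cells, and reach 772 RPKM for Lyz2, while Ncf4 and Anxa1 lie near the dashed line.

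Ranked by log2 ratio without microRNA and small nucleolar RNA entries, 10 of the 20 highest of 12218 genes and 17 of the 100 highest were among these 39. Of those 10, 6 were listed at 0 in ZIP10-negative cells, Lyz2, Ngp, Stfa2l1, Stfa2, Camp and Pglyrp1, so the added 1 sets their rank. Lyz2 held rank 1, and of members with values in both libraries Plac8 held rank 3 and Stfa1 rank 4. Ncf4 held rank 3026 and Padi4 rank 5983. Summed over a class, specific and gelatinase granule genes had 374 RPKM in ZIP10-positive cells and 3.22 RPKM in ZIP10-negative cells, stefins 981 and 12.04 RPKM, and the oxidase 303 and 43.2 RPKM. The azurophil class had 5.63 and 1.44 RPKM.

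**Figure D4:**
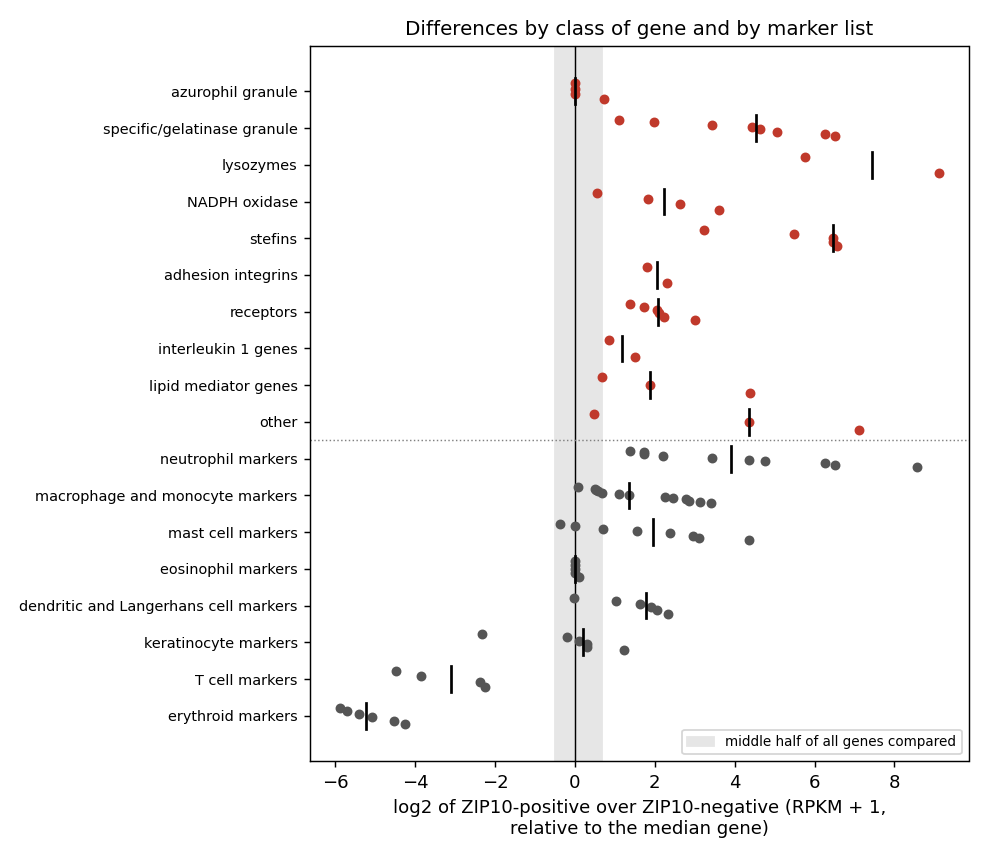
Log2 ratio of RPKM + 1, ZIP10-positive over ZIP10-negative and relative to the median gene, for each gene by class (red) and for lists of cell type markers (grey); black bars are list medians and the grey band spans the lower to the upper quartile of all genes compared. Values against a listed 0 depend on the added 1. The class medians run from 0 for azurophil granule genes to 7.43 for lysozymes, and T cell and erythroid markers lie below 0.

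Most other neutrophil genes were also higher in ZIP10-positive cells. Of 20 analysed, 16 reached 2-fold higher in ZIP10-positive cells and 0 reached 2-fold lower, or 14 and 0 against the median gene. The backgrounds were 44.1% higher as deposited and 14.7% against the median gene. S100a8, a subunit of calprotectin, had 865 RPKM in ZIP10-positive cells and 15.7 RPKM in ZIP10-negative cells. Its partner S100a9 had 530.01 RPKM in ZIP10-positive cells against a listed 0 in ZIP10-negative cells, a further case where a listed 0 stands beside a clear value of a partner gene. The Fc gamma receptors Fcgr4 and Fcgr3 had 28.2 and 19.5 RPKM against a listed 0 and 0.641 RPKM. Of 5 neutrophil transcription factor genes 2 were past 2-fold higher as deposited, and 1 against the median gene, on backgrounds of 44.1% and 14.7%. Cebpa had 296 RPKM in ZIP10-positive cells and 217 RPKM in ZIP10-negative cells, and Cebpb had 146 RPKM against 47.6 RPKM. Relative to the median gene the log2 ratio of Cebpa was -0.53 and that of Cebpb 0.63. With scaling that leaves out globin genes and Rn45s they were -0.94 and 0.22, so the direction of Cebpa follows the scaling. Cebpe, which drives specific granule genes, had 3.13 RPKM against a listed 0, and Gfi1 was listed at 0 in both. The 5 counted leave out Sfpi1, which encodes PU.1 and was on the same list under its other symbol Spi1. Sfpi1 had 23.9 RPKM against a listed 0, which put it past 2-fold higher on either scale. Of 8 further genes linked to azurophil granules 5 were past 2-fold higher as deposited, on the background of 44.1%. Against the median gene it was 1, Mgst1, on the background of 14.7%. Mgst1 had 379 RPKM against 74.2 RPKM, and its log2 ratio of 1.36 was 0.95 with scaling that leaves out globin genes and Rn45s. The proteoglycan gene Srgn had 78.3 RPKM against 22.6 RPKM, the membrane protein gene Cd63 had 382 RPKM against 121 RPKM and the protease gene Ctsc had 39.3 RPKM against 20.7 RPKM. The rest of these genes had lower values in ZIP10-positive cells. Gstm1 had 22.2 RPKM against 8.61 RPKM, Prss57 4.47 RPKM against 1.04 RPKM and Cst7 1.84 RPKM against 1.41 RPKM. Ms4a3 was listed at 0 in both libraries. Ctsc, Gstm1 and Cst7 turned to the lower side with scaling that leaves out globin genes and Rn45s.

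Markers of neutrophils and markers of other myeloid cells were both higher in ZIP10-positive cells. Of 10 neutrophil markers, 5 are also among the 39 and the rest are among the other neutrophil genes counted above, so none is a new gene. All 10 were past 2-fold higher in ZIP10-positive cells. The background for the marker lists, here and below, was 44.1% higher and 3.55% lower. The sum of the neutrophil markers was 1691 RPKM in ZIP10-positive cells, mostly from S100a8 and S100a9, and 16.8 RPKM in ZIP10-negative cells. Cxcr2, Mmp9 and Mmp8 had 6.52, 6.48 and 5.11 RPKM in ZIP10-positive cells, against 0.507, 0.502 and a listed 0 in ZIP10-negative cells. Ly6g was not analysed here. Of 13 macrophage and monocyte markers 11 were past 2-fold higher and all 13 had the higher value in ZIP10-positive cells, with sums of 154 and 20.2 RPKM. Csf1r had 19.9 RPKM against 0.301 RPKM, the complement genes C1qa, C1qb and C1qc had 5.32, 10.9 and 6.34 RPKM against listed zeros, and Mrc1 had 0.0702 RPKM against a listed 0.

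Mast cell markers had 5 of 8 genes past 2-fold higher and sums of 302 RPKM in ZIP10-positive cells and 14.3 RPKM in ZIP10-negative cells. Dendritic and Langerhans cell markers had 5 of 6 higher and sums of 935 and 108 RPKM. The eosinophil markers Epx, Prg2, Siglec5 and Ccr3 were listed at 0 in both libraries. T cell markers went the other way, with 4 of 4 past 2-fold lower in ZIP10-positive cells and sums of 87.8 and 596 RPKM, and 6 of 6 erythroid markers were lower, with sums of 16376 and 283685 RPKM. Ptprc, the pan-leukocyte CD45, had 4.49 RPKM in ZIP10-positive cells and 9.27 RPKM in ZIP10-negative cells. The other leukocyte-wide markers had the higher value in ZIP10-positive cells, Laptm5 with 90.3 RPKM against 57.6 RPKM and Coro1a with 273 RPKM against 118 RPKM. With scaling that leaves out globin genes and Rn45s both turned to the lower side, at log2 ratios of -0.73 and -0.19. Keratinocyte markers had 4 of 6 past 2-fold higher and 1 past 2-fold lower, or 1 and 1 against the median gene, with sums of 2303 and 805 RPKM. Krt14, Krt15 and Trp63 turned to the lower side with scaling that leaves out globin genes and Rn45s. The part of each of these cell types in the values of the granule and oxidase genes was not tested.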

How the data were processed

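The authors deposited RPKM values, 1 per gene symbol and library, with unstated annotation. Tools named in the submitters' processing notes are cutadapt, TopHat and Cufflinks, and the build is mm9. Versions, settings and strand use were not given in the sources used here. Libraries were read as single 50-base reads, per the labels' protocols.

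Differences were log2 ratios with a pseudocount of 1 RPKM, for genes that reached 1 RPKM in either library, as deposited and relative to the median log2 ratio of the 9620 genes at 1 RPKM or more in both libraries. That shift was divided between the libraries and applied to the RPKM values before the pseudocount was added. A single library in each group allows no test, and genes were counted where they lay at least 2-fold apart.

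Ratios of low values that were whole-number fractions to a relative tolerance of 1.2e-05, found in 64.6% of 1389 genes, gave a positive-to-negative depth ratio of 1.03. GENCODE vM21 transcript lengths less an assumed 199 bases gave depths of about 2.78e+06 reads for ZIP10-positive and 2.71e+06 reads for ZIP10-negative cells. Only 23.4% of the 359 genes used lay within 1% of this depth, so read numbers by length are estimates. The fewest whole reads that give a ratio, matched to within the rounding of the deposited digits, can be a fraction of the true number. They were used only where few accidental matches were expected (under 0.05) and where the positive count was at most 1.15 times the length-based one. Clopper-Pearson intervals at 95% from them cover counting error only, as reads carry no molecular identifiers. On annotated transcripts, 24 of the 39 members share no 50-base stretch with another gene entry. The other 15 share some, which makes their values less certain.

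Slc39a10, which encodes ZIP10, had 49.4 RPKM in the ZIP10-positive library against 11.1 RPKM in the ZIP10-negative one. Its log2 ratio was 2.05 as deposited and 1.12 relative to the median gene. The sort used the protein and these values are RNA. As 44.1% of all genes compared were also past 2-fold higher as deposited, this is only a weak check of the labels.

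Members and lists were chosen with earlier results of these data known. One further result for the oxidase partner genes is not reported here. Every member is accounted for. Of other pathway genes up to 4 per list at 10 RPKM or more are named. Cebpe, Sfpi1, Alox12, Gfi1, Gstm1, Prss57, Cst7 and genes listed at 0 were named after their values were seen. RefSeq names matched 36 members by symbol and 2 by synonym, Chi3l3 as Chil3 and Chi3l1 as Chil1. The depth ratio, the depth and the log2 ratios were checked on simulated data in which the length of every gene was known. The counting intervals, shared stretches and motif counts were not checked in this way. Python 3.11.15, pandas 2.3.3, numpy 2.4.6, scipy 1.17.1 and matplotlib 3.10.9 were used.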

Additional observations from a re-analysis of the deposited data

How the results depend on the processing

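No member with a value turned from higher to lower under any pseudocount, filter or scaling tried, and 0 members were at least 2-fold lower under each. The count of members at least 2-fold higher, 35 as deposited and 31 relative to the median gene, was 36 and 32 with a pseudocount of 0.1 RPKM, 26 and 21 with a pseudocount of 5 RPKM, and 30 under either scaling alternative, to all but the 50 most abundant genes or to all but globin genes and Rn45s. It was 9 and 6 when 1 RPKM was required in both libraries, which leaves 9 members, and 18 and 14 without genes listed at 0 in either library, which leaves 19 members. The median log2 ratio, 3.28 as deposited and 2.81 relative to the median gene, was 5.58 and 5.06 with a pseudocount of 0.1 RPKM, 1.75 and 1.41 with a pseudocount of 5 RPKM, and 2.81 and 2.31 with no filter. It was 2.59 and 1.81 with 1 RPKM required in both libraries, 2.79 and 1.88 without listed zeros, 2.66 when the 50 most abundant genes were left out of the scaling and 2.61 when globins and Rn45s were. Those scalings put the zero point at 1.29 and 1.39. The size of a median depends on the pseudocount; the cause was not tested. No paired analysis was possible because each group is 1 library, and leaving out a replicate was not possible for the same reason. At about 2.71e+06 estimated reads, several ZIP10-negative values rest on 1 or 2 reads.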
